A study of Homo sapiens with 3 samples.

Results

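Chemokines are small secreted proteins that direct the movement of white blood cells. The 10 genes described here, CXCL1, CXCL2, CXCL3, CXCL5, CXCL6, CXCL8, CXCL10, CCL2, CCL5 and CCL20, encode chemokines that attract neutrophils, monocytes or lymphocytes. They were taken by symbol from a table of 58037 genes, and all 10 were found there. They were chosen by function and with their counts in these 3 libraries known, so those counts and the folds made from them are given as a description. The values come from poly(A) RNA sequencing of the established human melanoma line A375, with 1 library in each of 3 groups. Control cells were kept in serum-free DMEM. YA-A375 cells received the secretome of young adipocytes, which is serum-free medium conditioned by adipocytes differentiated in culture from preadipocytes of young donors. OA-A375 cells received the secretome of old adipocytes, made in the same way from old donors. The YA-A375 group was read from the library title, A375 Young, and the other groups from their treatment labels. All groups were the same cell line and all were free of serum. Exposure lasted 24 h by the study's methods and 24 to 48 h by the treatment protocol of the labels.

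The control medium had not been conditioned by any cell, so conditioning itself and the age of the donors cannot be told apart in a comparison of OA-A375 with control. OA-A375 against YA-A375 compares 2 conditioned media, but the number of donors behind each secretome is not given in the sources used here. The paper lists only men among its old adipocyte donors and mostly women among the young, and their source and body site differ too. Which of them were used here is not given, so donor age cannot be told apart from sex, source or site. With 1 library per group no test between conditions was possible and no p-value is given. Each ratio has a 95% counting interval from the reads of the 2 libraries, which covers counting error only and compares libraries, not conditions. In bulk RNA, fewer cells with a transcript and less of it per cell cannot be told apart.

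Totals ranged from 18089008 counts in OA-A375 to 21448195 in control. Some melanocyte markers had few or no counts in these libraries. SOX10, the lineage transcription factor, had 0 counts in all libraries, while MITF had 1221 counts in control, 764 in YA-A375 and 881 in OA-A375. The annotated exons of SOX10 share 2.40% of their bases with POLR2F on the opposite strand. Whether SOX10 transcripts were absent or lost in counting was not tested. Leukocytes, stromal and endothelial cells also make these chemokines, so their markers were counted. Leukocyte markers were low. PTPRC, which encodes CD45, had 0 counts in control, 1 in YA-A375 and 0 in OA-A375, 4 of the 9 leukocyte markers were at 0 in all libraries, and the summed level of all 9 was 7.41, 7.23 and 5.09 CPM (counts per 1000000 counts of the library) in control, YA-A375 and OA-A375. Most of that sum was LYZ, the lysozyme gene, with 148, 143 and 86 counts. Of the 9 adipocyte markers 1, LEP, was at 0 in all libraries, and ADIPOQ had 1, 0 and 0 counts. The summed adipocyte level was 21.3, 40.7 and 27.5 CPM, and that of 9 fibroblast markers was 41.3, 51.7 and 33.4. Single markers of these lists went different ways. Among the adipocyte genes CIDEC had 6, 31 and 36 counts, PLIN4 284, 579 and 321, LIPE 79, 153 and 67 and FABP4 16, 15 and 2. Among the fibroblast genes DCN had 13, 138 and 24 counts, COL1A1 75, 117 and 84 and FBLN1 136, 155 and 49. PDGFRB, with 515, 568 and 334, held most of the fibroblast sum, while PDGFRA was lowest in YA-A375, with 76, 20 and 51. COL1A2, COL3A1 and THY1 had at most 4 counts in any library. The part of such transcripts in the chemokine values was not tested.

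CXCL1, CXCL2, CXCL3, CXCL5, CXCL6 and CXCL8 carry a glutamate-leucine-arginine motif and act on neutrophils through the receptors CXCR1 and CXCR2. CXCL10 lacks that motif, is induced by interferon and acts through CXCR3 on T cells. CCL2 acts through CCR2 on monocytes, CCL20 acts through CCR6 on dendritic cells and lymphocytes, and CCL5 attracts monocytes and T cells. In many tissues the neutrophil attractants are transcribed within hours of interleukin-1, tumour necrosis factor or bacterial signals, through NF-kB binding close to the start site, and their transcripts are short-lived because of AU-rich elements in the 3′ untranslated region.

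The promoter stretches are shown because a 9-base NF-kB site core stood at nearly the same distance from the RefSeq start site in genes whose counts in these libraries were very different. The sequences are those of RefSeq on GRCh38.p14, 5′ to 3′ on the strand of the gene, and capitals mark the core GGAATTTCC. The stretches of CXCL1 and CXCL8 are longer, and the others hold the core with 10 bases on each side. GENCODE 29, from which the gene bounds given with each gene are taken, places the outermost start of CXCL8, CXCL2, CXCL3, CXCL5 and CXCL6 further upstream than RefSeq does, so the stretches of CXCL2, CXCL3, CXCL5 and CXCL6 lie inside those bounds and distances to the start depend on the annotation. In OA-A375 CXCL8 had 7523 counts, CXCL1 4584, CXCL2 and CXCL3 337 each, CXCL5 1 and CXCL6 0.
CXCL8, chr4:73740449-73740505, plus strand: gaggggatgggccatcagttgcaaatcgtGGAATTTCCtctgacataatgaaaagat
CXCL1, chr4:73869273-73869392, plus strand: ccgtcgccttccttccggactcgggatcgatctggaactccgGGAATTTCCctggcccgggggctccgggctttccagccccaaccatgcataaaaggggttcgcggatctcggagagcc
CXCL2, chr4:74099254-74099282, minus strand: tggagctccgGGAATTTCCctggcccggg
CXCL3, chr4:74038749-74038777, minus strand: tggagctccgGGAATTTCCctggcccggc
CXCL5, chr4:73998749-73998777, minus strand: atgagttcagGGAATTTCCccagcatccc
CXCL6, chr4:73836579-73836607, plus strand: ctgagttcagGGAATTTCCccagcatccc

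Promoter windows of 300 bases, 250 before the RefSeq start site and 50 after, were at hand for 8 of the 10 genes, all but CCL2 and CCL5. The core GGAATTTCC, searched on both strands, was in 7 of these 8 windows, and 0.461% of all 35116 windows of this length held it. Counted from the RefSeq start site, it lay at positions -91 to -83 in CXCL8, -78 to -70 in CXCL1 and CXCL3, -77 to -69 in CXCL2, -90 to -82 in CXCL5 and -89 to -81 in CXCL6. In CXCL10 it lay at -176 to -168 on the other strand, and CCL20 had none. The looser pattern GGGNNNNNCC, which the core overlaps in some of these windows, was in all 8 but also in 58.7% of all windows. The AP-1 pattern TGANTCA was in the window of CXCL8 alone among the 8, at -137 to -131, against 7.71% of all windows. The C/EBP pattern TTGCNNAA was in that of CXCL2 alone, at -188 to -181, against 10.5%, and the interferon element pattern TTTCNNTTTC in that of CXCL10 alone, at -221 to -212, against 3.57%. TATAAA was in the windows of CXCL8 and CCL20, against 11.5%. A match is a description of the letters and not evidence of binding, and a missing match does not mean that no site is present. TTGCAAAT in the CXCL8 stretch, for example, comes close to the C/EBP pattern without matching it. The windows of CXCL1 and CXCL3 were 82.5% identical in a global alignment, those of CXCL1 and CXCL2 72.1%, those of CXCL5 and CXCL6 83.1% and those of CXCL1 and CXCL8 42.6%.

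In OA-A375, transcripts of CXCL8, CXCL1, CXCL2, CXCL3 and CCL2 were between 4.65-fold and 22.3-fold higher than in control. In YA-A375 the same 5 were between 1.06-fold and 2.96-fold of control, and CXCL2 had the highest ratio. CCL20 was low in every library, and CXCL5, CXCL6, CXCL10 and CCL5 had at most 4 counts in any library. These 4 have too few counts for a fold change to be read.

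CXCL8 encodes interleukin-8, the neutrophil attractant that binds CXCR1 and CXCR2. The gene (ENSG00000169429.10) lies on the plus strand of chromosome 4 from 73740506 to 73743716 on GRCh38. Its normalised count, the count divided by the size factor of its library, was 378 in control, 468 in YA-A375 and 8445 in OA-A375. OA-A375 stood far above the other libraries, which were close to each other. The ratio was 22.3 in OA-A375 against control (counting interval 20.2 to 24.8), 1.24 in YA-A375 against control (1.08 to 1.42) and 18.1 in OA-A375 against YA-A375 (16.5 to 19.8). By log2 fold change in OA-A375 against control, 4.48, CXCL8 ranked 5 from the top of the 14413 genes whose normalised count averaged 20 or more over the libraries. In YA-A375 its log2 fold change was 0.31 and its rank 2108.

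CXCL1, first isolated as a growth-stimulating activity of melanoma cells, encodes a CXCR2 ligand. The gene (ENSG00000163739.4) is on the plus strand of the same chromosome, from 73869393 to 73871242. There were 691 counts in control, 728 in YA-A375 and 4584 in OA-A375, or 651, 688 and 5146 after normalisation. Control and YA-A375 were at one level, with a ratio of 1.06 whose interval, 0.951 to 1.17, held 1. The ratio of OA-A375 to control was 7.90 (7.29 to 8.57) and that of OA-A375 to YA-A375 was 7.48 (6.91 to 8.10). CXCL1 ranked 26 of 14413 by its log2 fold change of 2.98 in OA-A375 and 5030 by its 0.08 in YA-A375.

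CXCL2 and CXCL3 encode further CXCR2 ligands closely related to CXCL1. CXCL2 (ENSG00000081041.8, minus strand, 74097035 to 74099293) had 43 counts in control, 127 in YA-A375 and 337 in OA-A375. CXCL3 (ENSG00000163734.4, minus strand, 74036589 to 74038807) had 57, 106 and 337. For both genes YA-A375 lay between the other libraries, unlike CXCL8 and CXCL1, for which it lay beside control. The CXCL2 ratio was 9.34 in OA-A375 against control (6.78 to 13.1), 2.96 in YA-A375 against control (2.08 to 4.29) and 3.15 in OA-A375 against YA-A375 (2.56 to 3.90). The CXCL3 ratio was 7.04 (5.31 to 9.50), 1.87 (1.34 to 2.62) and 3.78 (3.03 to 4.74) in the same comparisons. In OA-A375 against control the intervals of CXCL1, CXCL2 and CXCL3 overlapped, while that of CXCL8 lay above all of them. In OA-A375 against YA-A375 the intervals of CXCL2 and CXCL3 overlapped. That of CXCL1, 6.91 to 8.10, lay above both there and below that of CXCL8. In YA-A375 against control the intervals of CXCL2 and CXCL3 overlapped, and both lay above that of CXCL1. CXCL2 ranked 18 in OA-A375 and 84 in YA-A375, and CXCL3 ranked 32 and 397.

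Reads could be shared between these near copies. Of the 75-base windows of CXCL2 transcripts 7.07% also occurred in transcripts of CXCL3 or CXCL1, and of those of CXCL3 4.57% occurred in CXCL2. The share was 0.245% for CXCL1 and 0 for CXCL8, CCL2, CCL20 and CXCL10.

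CCL2 encodes a monocyte attractant. The gene (ENSG00000108691.9) is on the plus strand of chromosome 17, from 34255218 to 34257203. It had 65 counts in control, 89 in YA-A375 and 254 in OA-A375. OA-A375 was the highest, and YA-A375 could not be separated from control by its counts. The ratio to control was 4.65 in OA-A375 (3.53 to 6.21) and 1.37 in YA-A375 (0.986 to 1.92), and OA-A375 was 3.39-fold of YA-A375 (2.65 to 4.37). Its rank among 14413 genes was 70 in OA-A375 and 1351 in YA-A375.

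CCL20, the ligand of CCR6 (ENSG00000115009.11; chromosome 2, plus strand, 227805739 to 227817564), had 10 counts in control, 20 in YA-A375 and 27 in OA-A375. Its mean normalised count of 19.5 was just under the minimum of 20 used for counts and medians, and the member just above that minimum, CCL2, had a mean of 143. The CCL20 ratio of OA-A375 to control was 3.22, with an interval from 1.51 to 7.45. The intervals of its ratio of 2.01 in YA-A375 against control (0.896 to 4.80) and of 1.60 in OA-A375 against YA-A375 (0.866 to 3.02) both held 1.

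**Figure D1:**
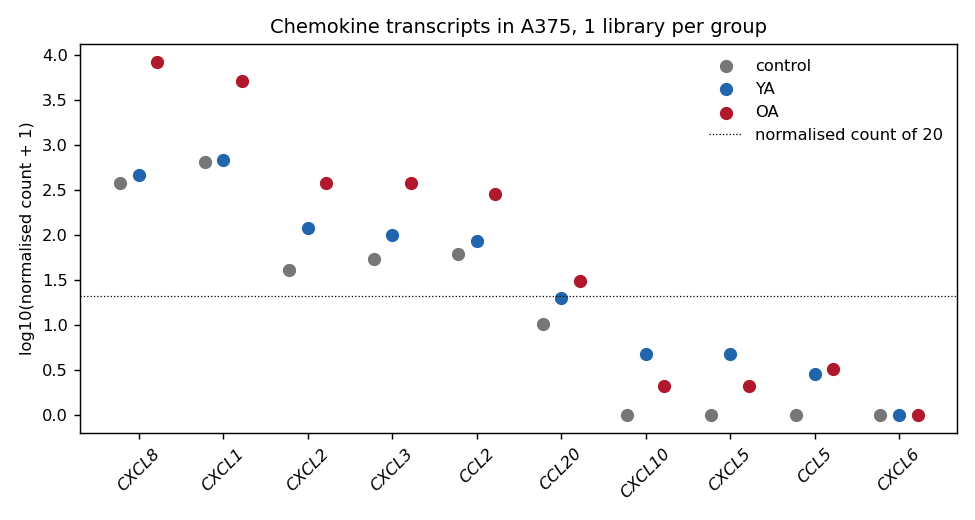
Normalised counts of the 10 chemokine genes on a log10(count + 1) axis, with 1 point per library (control, YA, OA) and a dotted line at a normalised count of 20. For CXCL8 the OA point is at 8445 and the control point at 378, while the last 4 genes on the right had at most 4 counts in any library.

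CXCL5 (ENSG00000163735.6; chromosome 4, 73995642 to 73998779) and CXCL10 (ENSG00000169245.5; chromosome 4, 76021117 to 76023497) each had 0 counts in control, 4 in YA-A375 and 1 in OA-A375. CCL5 (ENSG00000271503.5; chromosome 17, 35871491 to 35880793) had 0, 2 and 2. CXCL6 (ENSG00000124875.9; chromosome 4, 73836497 to 73849064) had 0 in every library. A count of 0 allows a level of up to 0.140 CPM in control, 0.141 in YA-A375 and 0.166 in OA-A375, taking 3 counts as the limit. No fold is given for any of the 4. Transcripts of CXCL6 share exonic bases with the pseudogene PPBPP1 over 4.31% of their length, and 7.94% of the 75-base windows of CCL5 also occur elsewhere. CXCL5, CXCL6 and CXCL10 hold the same NF-kB core in their windows as CXCL8 and CXCL1.

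The 5 members with a mean of at least 20, CXCL8, CXCL1, CXCL2, CXCL3 and CCL2, were above 20 in every library, the lowest value being 40.5 for CXCL2 in control. In OA-A375 against control 5 of the 5 were higher by 1.2-fold or more, and 5 by 2-fold or more. The study's methods name 1.2, without a unit, for the upregulated genes taken into pathway analysis. Here it is used as a fold in both directions. Of all 14413 genes 21.1% were higher by 1.2-fold or more, 21.5% were lower by as much and 2.86% were higher by 2-fold or more. The counting interval lay wholly above 1.2 for 5 of the 5. Their median log2 fold change was 2.98 (range 2.20 to 4.48), beside 0.01 over all genes.

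In YA-A375 against control 4 of the 5 were higher by 1.2-fold or more, and 1, CXCL2, by 2-fold or more. Over all genes the shares were 17.4% higher and 16.4% lower by 1.2-fold or more, and 2.15% higher by 2-fold or more. The counting interval lay wholly above 1.2 for 2 of the 5, CXCL2 and CXCL3. The median log2 fold change was 0.45 (range 0.08 to 1.54), beside -0.02 over all genes. In OA-A375 against YA-A375 5 of the 5 passed 2-fold, beside 3.04% of all genes, and all 5 passed 1.2-fold, beside 21.5% of all genes higher and 23.0% lower by that much. The median there was 1.91 (range 1.65 to 4.17), beside 0.01 over all genes. The comparisons share libraries, so their values are not independent of each other.

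**Figure D2:**
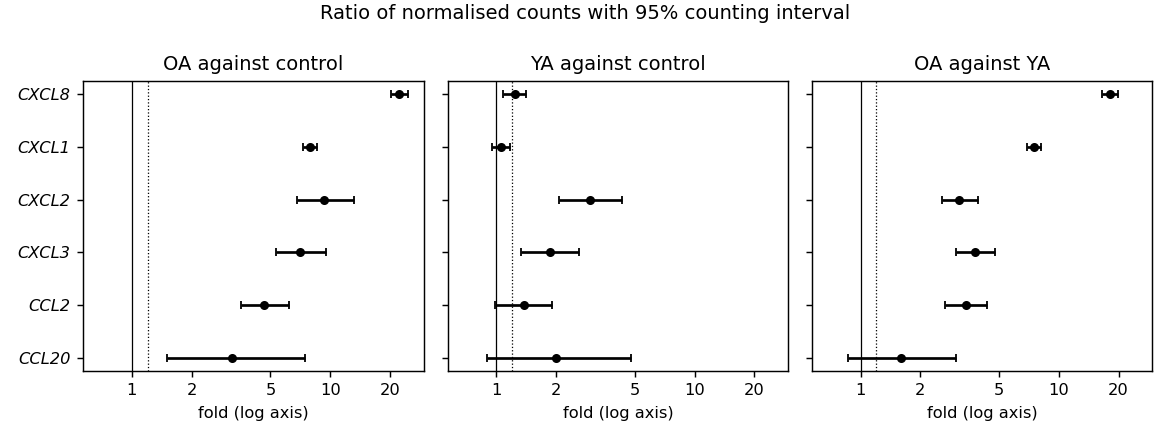
Ratio of normalised counts between 2 libraries for the 6 chemokine genes with enough counts, on a log axis, with bars for the 95% counting interval, a solid line at 1 and a dotted line at 1.2. CXCL8 is at 22.3 in OA against control and at 1.24 in YA against control, whereas CXCL2 has the highest ratio in YA against control, 2.96.

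Levels between genes were compared per length, as TPM, transcripts per 1000000 over the annotated exonic length. In control the order was CXCL1 at 103 TPM (exact Poisson interval 95.7 to 111), CXCL8 at 34.1 (30.9 to 37.7), CCL2 at 6.34 (4.89 to 8.08), CXCL2 at 5.55 (4.02 to 7.48), CXCL3 at 4.97 (3.77 to 6.44) and CCL20 at 1.21 (0.582 to 2.23). The intervals of CCL2, CXCL2 and CXCL3 overlapped, so their order in control is not resolved. In OA-A375 CXCL1 was at 807 TPM (784 to 831) and CXCL8 at 755 (738 to 772), and they ranked 137 and 149 of 57433 genes with a known length. The intervals of these 2 did not overlap, but with the longest transcript as the length CXCL1 was at 685 TPM and CXCL8 at 723, which turns their order. In control CXCL1 had ranked 1844 and CXCL8 5356. In OA-A375 CXCL2 was at 51.3 TPM, CXCL3 at 34.6, CCL2 at 29.2 and CCL20 at 3.86. CCL2 was above CXCL3 in OA-A375 when the longest transcript was used, at 41.8 against 33.6 TPM.

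The members together had 1267 counts in control, 1575 in YA-A375 and 13066 in OA-A375, or 59.1 CPM (Wilson interval 55.9 to 62.4), 73.9 CPM (70.4 to 77.7) and 722 CPM (710 to 735). The sum was 12.3-fold of control in OA-A375 (11.6 to 13.0) and 1.25-fold in YA-A375 (1.16 to 1.34). CXCL1 and CXCL8 held 86.2% of it in control, 77.7% in YA-A375 and 92.7% in OA-A375. By counts, which are not corrected for length, the leading gene differed between libraries, while by TPM over the exonic length CXCL1 was above CXCL8 in all 3. CXCL1 held 54.5% of member counts in control (51.8 to 57.3), 46.2% in YA-A375 (43.8 to 48.7) and 35.1% in OA-A375 (34.3 to 35.9). CXCL8 held 31.6% (29.1 to 34.3), 31.4% (29.2 to 33.8) and 57.6% (56.7 to 58.4). CXCL2 held its highest share in YA-A375, 8.06%, beside 3.39% in control and 2.58% in OA-A375.

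**Figure D3:**
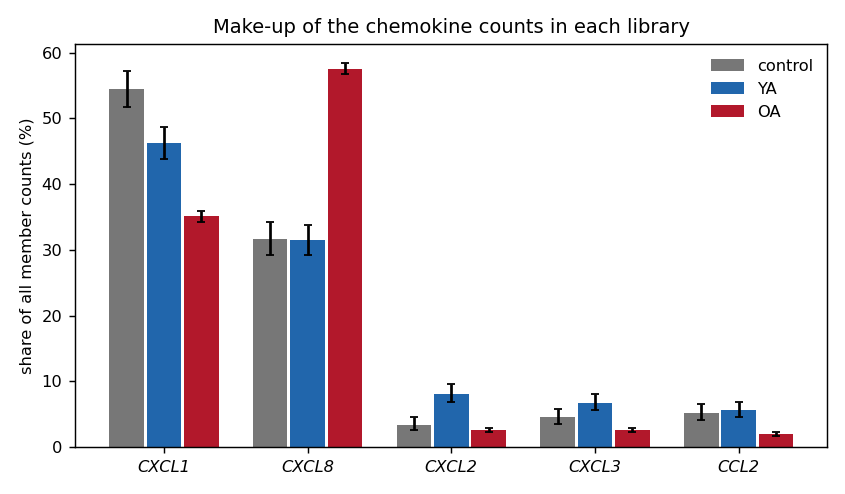
Share of all chemokine member counts held by CXCL1, CXCL8, CXCL2, CXCL3 and CCL2 in each library, with bars for the 95% Wilson interval. Counts are not corrected for length. CXCL1 holds the highest share in control and YA (54.5% and 46.2%) and CXCL8 in OA (57.6%).

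Ratios of counts within a library do not depend on the scaling between libraries. CXCL8 to CXCL1 was 0.580 in control (0.512 to 0.657), 0.680 in YA-A375 (0.605 to 0.763) and 1.64 in OA-A375 (1.58 to 1.70), so the OA-A375 interval lay above the others, which overlapped. CXCL2 to CXCL1 was 0.0622 in control (0.0446 to 0.0847), 0.174 in YA-A375 (0.143 to 0.211) and 0.0735 in OA-A375 (0.0656 to 0.0821). Here YA-A375 stood apart, and control and OA-A375 overlapped. CCL2 to CXCL1 was 0.0941 (0.0718 to 0.121), 0.122 (0.0970 to 0.153) and 0.0554 (0.0486 to 0.0629), lowest in OA-A375. CXCL2 to CXCL3 had intervals that all held 1, from 0.496 to 1.14 in control, from 0.918 to 1.57 in YA-A375 and from 0.857 to 1.17 in OA-A375.

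CXCL8, CXCL6, CXCL1, CXCL5, CXCL3 and CXCL2 lie within one cluster on chromosome 4, with start sites at 96.0 kb (CXCL6), 129 kb (CXCL1), 258 kb (CXCL5), 298 kb (CXCL3) and 359 kb (CXCL2) from that of CXCL8. Genes that were high in OA-A375 alternated there with genes at or near 0. PF4V1, PF4 and PPBP, which encode the platelet chemokines of the same cluster, had 0 counts in every library, as had AFM and RASSF6 beside it. MTHFD2L, a folate enzyme gene 374 kb from the start of CXCL8 and next to CXCL2, had 154 counts in control, 161 in YA-A375 and 158 in OA-A375, a ratio of 1.22 in OA-A375 against control (0.973 to 1.54). On the far sides, AFP had 2, 0 and 3 counts, EPGN 0, 0 and 1, and EREG 8, 7 and 12.

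**Figure D4:**
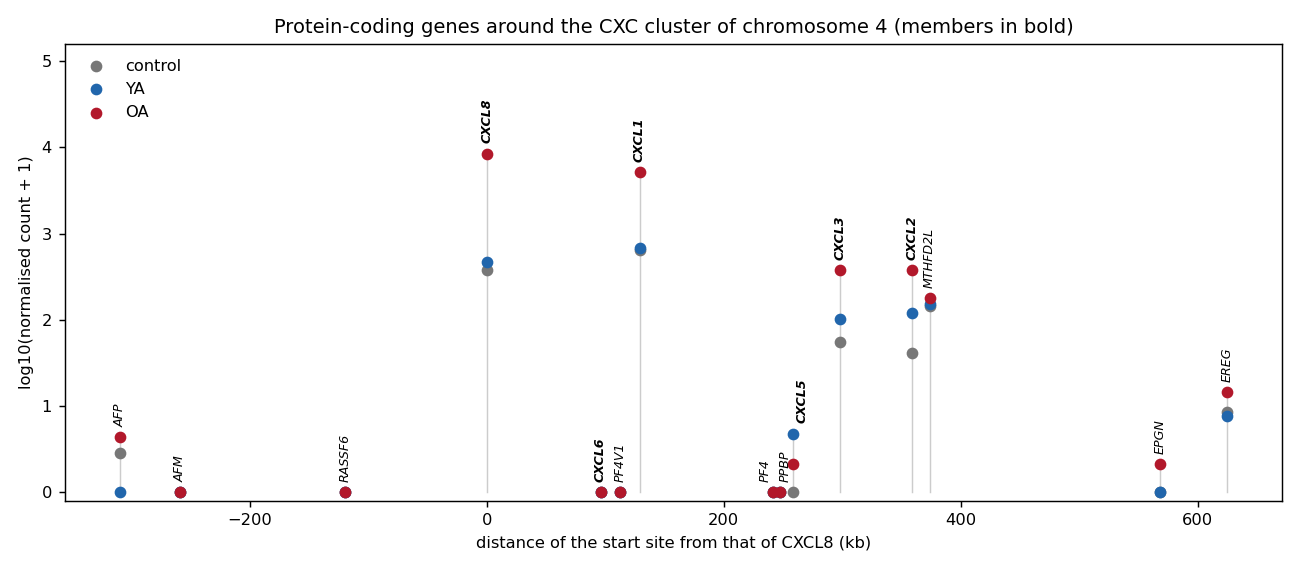
Normalised counts on a log10(count + 1) axis against the distance of each protein-coding gene's start site from that of CXCL8 in kb, with 1 point per library and the chemokine members in bold. OA points of CXCL8, CXCL1, CXCL3 and CXCL2 lie above those of YA and control, while CXCL6, PF4V1, PF4 and PPBP are at 0 and the 3 points of MTHFD2L lie together.

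The other members lie apart from that cluster, and their neighbours showed no common order of the libraries. Beside CXCL10, the interferon-induced chemokines CXCL9 and CXCL11 had 1, 0 and 0 counts and 0, 0 and 4 counts in control, YA-A375 and OA-A375. ART3, which spans CXCL10 on the opposite strand without sharing an exon with it, had 612, 307 and 131 counts, and SDAD1, NUP54 and SCARB2 had ratios of 0.875, 1.11 and 1.03 in OA-A375 against control. Beside CCL2, the genes of the related chemokines CCL7, CCL11 and CCL8 were at 0 in all libraries, as was SPACA3. TMEM98 had 364, 307 and 112 counts and ASIC2 3, 0 and 11, so the neighbours differed from CCL2 and from each other. The starts of TMEM98 and SPACA3 are distant, at -1327 kb and -1285 kb from that of CCL2. Beside CCL5, the chemokine gene CCL16, HEATR9 and LYZL6 were at 0 throughout, C17orf50 had 0, 1 and 0 counts, MMP28 7, 24 and 8 and RDM1 21, 25 and 44. Beside CCL20, SPHKAP was at 0, DAW1 had 2, 2 and 1 counts and PID1, whose start lies 1466 kb away, 20, 28 and 32. SCYGR6, SCYGR7 and SCYGR8, on the other side of CCL20, were not among the genes counted.

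The AU-rich elements of these genes differed. The 9-base element TTATTTATT was in the annotated 3′ untranslated region of 4 of the 10 members, with 5 copies in CXCL2, 3 in CXCL1, 1 in CXCL3 and 1 in CXCL8, and in 7.12% of 19146 genes. The shorter ATTTA, which the longer element contains, occurred 13.9 times per kb in CXCL2, 10.4 in CXCL3, 7.19 in CXCL8, 7.08 in CXCL1, 6.65 in CCL20, 5.51 in CXCL5, 5.36 in CXCL6 and 2.66 in CCL2. The median over genes with such a region of at least 100 bases was 1.54 per kb. CXCL10 had 1.23 per kb and CCL5 had 0. For ATTTA, genes with many counts and genes with almost none were thus both found above that median. The 9-base element was in none of CXCL5, CXCL6, CXCL10, CCL5, CCL20 and CCL2. A link of either element with level was not tested.

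Other chemokines were few. Of 38 listed, 36 were in the table, 21 of these were at 0 in all libraries and 3 passed the minimum. CX3CL1, a membrane-bound chemokine, had 15 counts in control, 48 in YA-A375 and 32 in OA-A375, a ratio to control of 2.54 in OA-A375 (1.34 to 5.05) and 3.21 in YA-A375 (1.77 to 6.17). CCL28 had 305, 302 and 232 counts and CXCL16 had 221, 154 and 132, so neither was higher in OA-A375 in counts.

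Transcripts of the receptors for these chemokines were nearly missing from A375. None of 18 chemokine receptors passed the minimum, 9 were at 0 in all libraries, and all 18 together had 20 counts in control, 18 in YA-A375 and 21 in OA-A375. CXCR1, the CXCL8 receptor, and CCR2, the CCL2 receptor, had 0 counts throughout. CXCR2 had 1, 0 and 0 counts and CCR6, the CCL20 receptor, 1, 0 and 0. None of the 5 atypical receptors, which bind chemokines without signalling to G proteins, passed the minimum, and ACKR3 had 1, 0 and 0 counts.

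The counts of higher and lower genes in the lists that follow are to be read beside all genes tested, of which 21.1% were higher and 21.5% lower by 1.2-fold or more in OA-A375 against control, and 17.4% and 16.4% in YA-A375. Among the genes of these lists IL6, TLR1, MMP9 and GPC5 would not have reached the minimum mean without OA-A375, so the filter took them in because they were high there. Of the adipocyte markers given above, CIDEC also passed only with OA-A375.

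Of the cytokines known to induce these chemokines, 4 of 15 passed the minimum, and 4 of these 4 were higher by 1.2-fold or more in OA-A375 (median log2 fold change 2.76). For IL6 this was fixed by the filter, while IL1A, IL1B and LIF were above the minimum in every library. The same cutoff put 2 higher and 1 lower in YA-A375 (median 0.22). IL1B, which encodes interleukin-1 beta, had 154 counts in control, 109 in YA-A375 and 1075 in OA-A375, a ratio to control of 8.32 in OA-A375 (7.02 to 9.91) and 0.710 in YA-A375 (0.550 to 0.913). IL1A had 184, 201 and 865 counts, with a ratio of 5.60 in OA-A375 (4.77 to 6.60). Like CXCL8 and CXCL1, both were far higher in OA-A375 alone. IL6 had 5, 10 and 65 counts and LIF, the other cytokine tested, 1283, 1589 and 3067.

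Receptors and adaptors of those signals were called at shares not far from those of all genes. Of 20 tested, 4, TLR1 through the filter, were higher and 6 lower by 1.2-fold or more in OA-A375 (median log2 fold change -0.13). In YA-A375 3 were higher and 4 lower (median -0.06). IRAK2, a kinase of the interleukin-1 receptor complex, had a ratio of 3.01 in OA-A375 (2.47 to 3.69), TNFRSF1A, the main receptor of tumour necrosis factor, 1.70 and TICAM1, an adaptor of Toll-like receptors, 1.44. On the lower side MYD88, the shared adaptor of interleukin-1 and Toll-like receptors, had 0.682, IL1RAP, the accessory chain of the interleukin-1 receptor, 0.661 and TNFRSF1B 0.646.

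Of 12 NF-kB subunits and inhibitors, 10 were higher and 0 lower by 1.2-fold or more in OA-A375 (median log2 fold change 0.75), and 5 were higher and 0 lower in YA-A375 (median 0.16). NFKBIA, which encodes the inhibitor IkB alpha and is itself transcribed by NF-kB, had 376 counts in control, 768 in YA-A375 and 1379 in OA-A375. Its ratio to control was 4.37 in OA-A375 (3.90 to 4.91) and 2.05 in YA-A375 (1.81 to 2.32), and YA-A375 lay between the others as for CXCL2 and CXCL3. TNFAIP3, a feedback inhibitor, had ratios of 2.84 and 2.06. RELB, a subunit, had 2.49 and 0.939, and NFKBIZ, a nuclear cofactor, 1.37 and 1.25.

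AP-1 and C/EBP factors were divided. Of 11 tested, 6 were higher and 5 lower in OA-A375 (median 0.37), and 5 were higher and 1 lower in YA-A375 (median 0.21). FOSL1 had a ratio of 1.96 in OA-A375, CEBPD 2.03 and FOSL2 1.72. FOSB had 3695 counts in control, 10053 in YA-A375 and 902 in OA-A375. ATF3 had 1007, 3207 and 462. Both were above control in YA-A375 and below it in OA-A375, an order that none of the 5 chemokines showed. FOS had a ratio of 0.419 in OA-A375 and 0.934 in YA-A375.

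Genes that respond to interferon together with CXCL10 mostly had enough counts to compare, while CXCL10 itself had only 0, 4 and 1. Of 10 tested, 4 were higher and 1 lower in OA-A375 (median 0.25), and 2 were higher and 2 lower in YA-A375 (median -0.02). IRF1 had a ratio of 1.69 in OA-A375 and 1.44 in YA-A375, IRF7 1.82 and 1.35 and OAS1 1.70 and 1.00, while IFIT2 had 0.601 and 0.718. Of 8 factors that bind or cut AU-rich and stem-loop transcripts, 1 was higher and 2 lower in OA-A375 (median -0.08), and 3 were higher and 2 lower in YA-A375 (median -0.03). ZC3H12A, the endonuclease regnase-1, had 136 counts in control, 281 in YA-A375 and 339 in OA-A375, a ratio of 2.97 (2.43 to 3.65) in OA-A375 and 2.07 in YA-A375. ZFP36L2 had 0.775 and 0.783.

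Proteases that cut chemokines included 7 tested genes, of which 4, MMP9 through the filter, were higher and 2 lower in OA-A375 (median 0.51) and 3 were higher and 3 lower in YA-A375 (median -0.16). MMP9, which shortens CXCL8 at its amino end, had 1 count in control, 3 in YA-A375 and 92 in OA-A375, a ratio of 110 in OA-A375 with an interval from 19.2 to 4375. ANPEP had a ratio of 1.66 and MMP14 1.42. MMP1 had 82, 15 and 18 counts and DPP4, which trims CXCL10, 42, 28 and 16, with a ratio of 0.454 in OA-A375 (0.238 to 0.824). Heparan sulfate carriers, which hold chemokines at the cell surface, had 3 of 8 higher, GPC5 through the filter, and 2 lower in OA-A375 (median 0.12). In YA-A375 1 was higher and 4 lower (median -0.19). SDC1 had a ratio of 1.66 and SDC4 1.62, while SDC2 had 0.254 and GPC4, with 105, 86 and 7 counts, 0.0794 (0.0312 to 0.170).

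Among the myeloid growth factors 2 of 3 tested were higher in OA-A375 and 0 lower (median 0.91), and 1 was higher and 1 lower in YA-A375 (median 0.15). CSF2, which encodes GM-CSF, had 21 counts in control, 33 in YA-A375 and 305 in OA-A375, a ratio of 17.3 in OA-A375 (11.1 to 28.4). CSF1, the macrophage growth factor, had a ratio of 1.89.

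**Figure D5:**
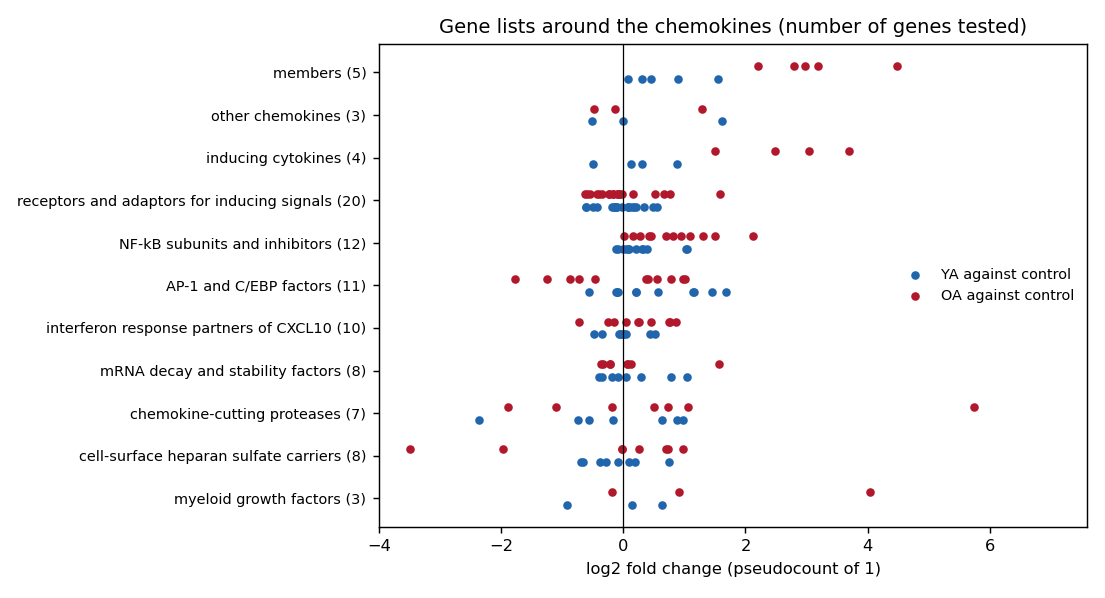
Log2 fold change, with a pseudocount of 1, of each gene whose normalised count averaged 20 or more in the chemokine members and 10 related lists, for YA against control and OA against control. The 5 members lie between 2.20 and 4.48 in OA, and the 4 inducing cytokines, of which IL6 passed the minimum only through OA, all lie above 0 in OA.

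The pattern of CXCL8 over the 3 libraries was most like that of TNFRSF9, CSF2, GAP43, SULT1B1 and IL6, by the Euclidean distance between the 2 log2 fold changes against control over 14412 other genes. TNFRSF9, which encodes the receptor 4-1BB, had 5, 7 and 85 counts and was at a distance of 0.415. CSF2 was at 0.540, GAP43, with 15, 16 and 184 counts, at 0.734, SULT1B1, with 7, 16 and 167, at 0.793 and IL6 at 0.966. Except for CSF2, they had at most 16 counts in control and in YA-A375 and reached the minimum mean through OA-A375 alone, so their likeness to CXCL8 is in part set by the filter.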

How the data were processed

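Raw gene counts of 3 A375 libraries were used as the authors deposited them. The submitters' processing notes name STAR 2.5.1b, featureCounts, R 3.6.1 and hg38, and the strand setting and annotation release are not given in the sources used here. All value columns were used (0 unmapped). Counts were divided by DESeq2 1.42.0 size factors (1.06, 1.06 and 0.891 for control, YA and OA) in R 4.3.3. Fold changes are log2((a + 1)/(b + 1)) over 14413 genes whose normalised count averaged 20 or more. Ratios have 95% Clopper-Pearson intervals and shares Wilson intervals. Amplified reads carry no molecular identifiers, so the intervals and the 3-count floor hold counting error only. With 1 library per group, the quasi-likelihood test of edgeR could not be run. Python 3.11.15, numpy 2.4.6, pandas 2.3.3, scipy 1.17.1, Biopython 1.88 and matplotlib 3.10.9 were used. Only the fold and interval steps, for OA against control, were tested on simulated counts. Those counts were Poisson draws without variation between libraries beyond counting error.

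Members and the 18 gene lists were chosen with earlier results of these data known. Named genes were the members, their neighbours, fixed partner genes, the 5 genes nearest to CXCL8 and, in each list, up to 3 per direction whose interval lay wholly beyond 1.2-fold in OA against control. LIF, CCL28, CXCL16, TLR1, GPC5, single cell type markers and the AU-rich elements were added after values were seen. Of 4 endothelial markers, summed 3.03, 2.44 and 1.88 CPM, 1 passed the minimum. Positions and lengths are of GENCODE 29 on GRCh38, which matched 57433 of 58037 identifiers. Protein sequences were not used here. Alternatives were scaling by TMM (edgeR 4.0.16) or by total count, a pseudocount of 5, no filter, a minimum mean of 100, transcript length and another distance.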

Additional observations from a re-analysis of the deposited data

How the results depend on the processing

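The log2 fold changes of CXCL8, CXCL1, CXCL2, CXCL3 and CCL2 moved by at most 0.01 with TMM or total-count scaling and 0.12 with a pseudocount of 5, in all 3 comparisons, and none changed sign. With those settings and with a minimum mean of 100 the numbers of these members past 1.2-fold and 2-fold were the same, and the median in OA against control was 2.97 to 2.98. Without a filter, genes with a handful of counts entered. Then 9 members were at least 1.2-fold and 9 at least 2-fold higher in OA against control, and the median log2 fold change there was 2.20. YA against control had 8 at 1.2-fold or more and 4 at 2-fold or more, and OA against YA had 2 lower by 1.2-fold. Those 2, CXCL5 and CXCL10, had 4 counts in YA and 1 in OA. Over all genes the filter set the number past a cutoff. In OA against control 3048 genes were higher by 1.2-fold, 3092 lower and 412 higher by 2-fold, and without a filter these numbers were 8340, 10895 and 4006. A minimum mean of 100 gave 1947 lower and 178 higher by 2-fold. In YA against control 2501, 2370 and 310 became 9661, 9306 and 2897 without a filter and 1404, 1451 and 91 with a minimum of 100. In OA against YA 3104, 3315 and 438 became 8049, 10917 and 3822 without a filter, and a minimum of 100 gave 1991 lower and 212 higher by 2-fold. With the longest transcript as the length, 8 of 15 TPM levels moved past their counting interval. Of the 5 genes nearest to CXCL8, 4 were also nearest by shares of normalised counts, and BCL2A1 took the place of IL6. No paired analysis was possible because each group has 1 library, and for the same reason no library could be left out. Depth limits CXCL5, CXCL6, CXCL10 and CCL5 to statements about counts.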
